A study of Mus musculus with 16 samples.

Results

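Doxorubicin is an anthracycline, a DNA-damaging quinone that cells can pump out through ATP-binding cassette (ABC) transporters or reduce with carbonyl and quinone reductases. The 8 genes described here are a chosen set of mouse genes linked to these roles. They are the efflux transporters Abcb1a, Abcb1b, Abcc1 and Abcg2, and the reductases Cbr1, Cbr3, Nqo1 and Por. The rule that sets them lists names and uses no measured value, and the deposited tables hold 22375 genes. All 8 had enough counts to be tested, together with 15758 genes in all.

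RNA was sequenced from mouse embryonic stem (ES) cells of 129/OLA background in 4 groups: WT cells of the E14TG2a line and Cfp1-/- cells, each untreated or treated with doxorubicin for 6 hours. The treatment protocol gives a dose of 1 μM, whereas the treatment label of the samples gives 1 mM. Both lines were grown on gelatin in serum with LIF. Cfp1 (gene symbol Cxxc1) binds CpG-rich DNA and targets trimethylation of histone H3 at lysine 4 to promoters, and the study asked whether cells without it can still change transcription when DNA is damaged. Each group held 2 biological replicates, each sequenced as 2 technical replicates that were summed here, giving 8 libraries from 16 samples. Each genotype was a single line, so line and genotype cannot be told apart. The sources used here do not say whether the biological replicates were separate cultures, so the p-values measure the spread between these libraries only.

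Totals ranged from 14880589 to 29422711 counts per library. Cxxc1 had 807 to 1199 normalized counts in the 4 WT libraries and 0.964 to 5.11 in the 4 Cfp1-/- libraries. Mdm2, a p53 target, had 4524 to 5962 normalized counts in the untreated libraries and 24881 to 32818 in the treated ones, and Cdkn1a had 131 to 338 and 1164 to 1805. The 8 ES cell markers were detected in every library, with a summed level of 68894 to 93980 normalized counts without and 25030.5 to 35939 with doxorubicin. Markers of other cells moved in part. Of the neural progenitor markers, Pax6 had 1761 and 738 normalized counts in untreated WT and at most 108 in any other library, whereas Nes had 1026 and 3036 in untreated and 1081 and 3318 in treated WT. The 5 fibroblast genes summed to 60.8 to 237 without and 297 to 511 with doxorubicin, mostly through Col1a1, which had 5.07 to 90.9 without and 201 to 365 with it. Col3a1 was lower in treated than in untreated WT and had at most 1.02 normalized counts in Cfp1-/- cells. Alb, Apoa1 and Vil1 of liver and gut, where many of these transporters and enzymes are abundant, summed to 22.2 to 94.5 normalized counts. Of these, Alb had 18.4 and 43.4 in treated Cfp1-/- cells and at most 5.28 in any other library, whereas Apoa1 was highest in treated WT (15.7). The 5 endoderm genes summed to 25.0 to 100, with 100 and 69.4 in treated Cfp1-/- cells, although Gata4 and Foxa2 were highest in WT libraries (28.5 and 7.30). In bulk RNA, fewer cells of a type cannot be told apart from less RNA per cell, and the part of these shifts in the results was not tested. Replicate 1 of each treated group had runs that differed far beyond counting noise: chi-square over its degrees of freedom was 9.61 in WT and 42.9 in Cfp1-/- cells and lay between 0.998 and 1.05 in the 6 other libraries. In the Cfp1-/- library the second run lacked part of chromosome 19 and most of X and Y: of genes with at least 20 counts in the first run, 340 of 464 on chromosome 19, 395 of 464 on X and 8 of 8 on Y had 0 in the second, beside 2 of 12388 on all others. None of the 8 genes was among them, and 8 genes of the lists described further on were.

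Transporters of this family bind their substrate inside the cell or within the membrane and export it at the cost of ATP. Abcb1a and Abcb1b together encode P-glycoprotein in the mouse, where humans have a single gene, and anthracyclines are among its classic substrates. Abcc1 exports glutathione conjugates and drugs carried with glutathione, and Abcg2 marks many stem cell populations by dye efflux. Of the reductases, Cbr1 and Cbr3 turn the side-chain carbonyl of doxorubicin into an alcohol, Nqo1 reduces quinones fully to hydroquinones, and Por passes single electrons from NADPH to microsomal cytochrome P450 enzymes and to quinones.

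In untreated WT cells all 8 genes lay above the median of tested genes, which was 92.3 normalized counts per kb of exon. Abcg2 had the highest level per kb, 597 ± 35.8 (SD, n = 2), followed by Cbr1 at 569 ± 93.4, Abcb1b at 459 ± 73.1 and Nqo1 at 458 ± 151. Cbr3 at 279 ± 5.53 and Por at 269 ± 7.24 came next, then Abcc1 at 169 ± 20.8 and Abcb1a at 138 ± 37.6. In this order the ranges of the replicates overlapped from neighbour to neighbour among the first 4 genes and between Abcc1 and Abcb1a. Cbr3 and Por differed by little more than their SDs, whereas the ranges of Nqo1 and Cbr3, and of Por and Abcc1, did not overlap. With the longest coding transcript of 6792 bases in place of the 12366 bases covered by its exons, Abcc1 came to 307 normalized counts per kb and passed Cbr3. The same change put Abcg2 at 1194, above Cbr1 at 569, and Por at 411.

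**Figure D1:**
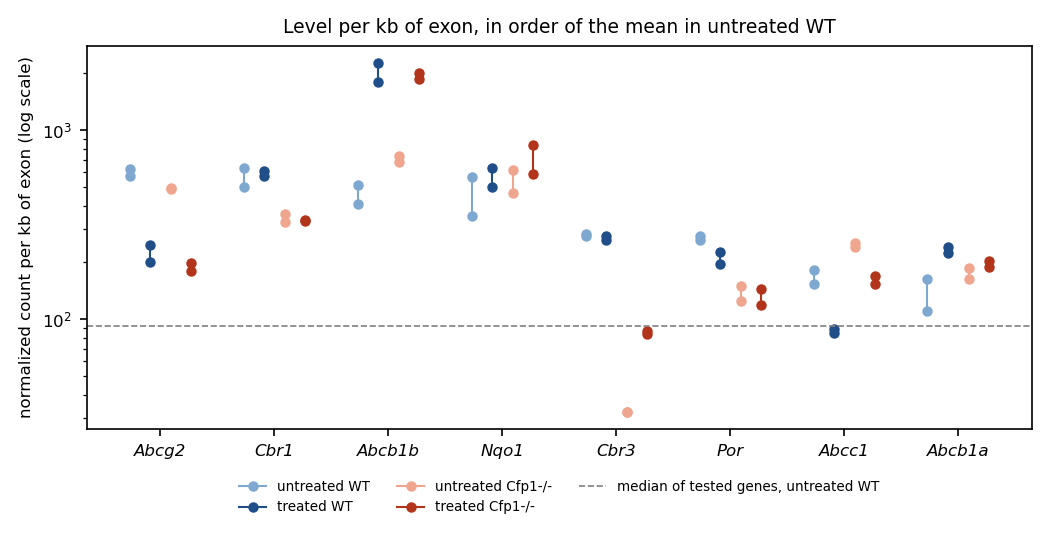
Level of each gene as normalized counts per kb of exon (y axis, log scale) in each of the 8 libraries, with genes on the x axis in the order of their mean in untreated WT. Points are biological replicates joined within a group, and the dashed line is the median of tested genes in untreated WT (92.3). Abcb1b stood above all others in the treated groups, and Cbr3 lay below the dashed line in both Cfp1-/- groups.

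The response in WT cells was led by the transporters: Abcb1b and Abcb1a rose with doxorubicin, and Abcg2 and Abcc1 fell. None of the 4 reductases passed the test, although Nqo1 did with the replicate number as a block. These were 2 of 8 genes higher and 2 of 8 lower at an adjusted p under 0.05 in the quasi-likelihood test of edgeR, adjusted over all tested genes by Benjamini-Hochberg, shares of 25.0% each. Over all tested genes 26.5% were higher and 21.8% lower, so the count for the 8 genes was near the background. With scaling to total counts the same 4 members passed in the same directions, while the higher genes made up 75.7% of all calls in place of 54.9%. Under the limits of the study, which also ask for 2.5-fold change and 200 normalized counts on average, Abcb1b and Abcg2 passed, where 5.10% of tested genes were higher and 2.80% lower.

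Abcb1b (ENSMUSG00000028970, NCBIm37 chr5:8798147-8866314, plus strand) had 1769 and 2218 normalized counts in untreated and 7820 and 9870 in treated WT cells, and 2966 and 3178 in untreated and 8155 and 8754 in treated Cfp1-/- cells. Every treated library was above every untreated one in both lines. The rise was 4.58-fold in WT (log2 fold change 2.20, SE 0.162, adjusted p = 1.07e-05) and 2.83-fold in Cfp1-/- cells (1.50, SE 0.158, adjusted p = 6.87e-05). With it, Abcb1b moved from percentile 79.2 to percentile 97.4 of the tested genes by level per kb in WT.

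Abcb1a (ENSMUSG00000040584, NCBIm37 chr5:8660077-8748575, plus strand) ends 49.6 kb before the start of Abcb1b. It had 900 and 608 normalized counts in untreated WT, 1323 and 1235 in treated WT, 1019 and 896 in untreated Cfp1-/- and 1113 and 1033 in treated Cfp1-/- cells. The WT groups did not overlap, and in Cfp1-/- cells they were separated by less than the gap between replicates. The rise in WT was 1.75-fold (log2 fold change 0.81, SE 0.190, adjusted p = 0.00647), but without replicate 2 of untreated WT, the lowest library, its adjusted p was 0.0509. In Cfp1-/- cells the log2 fold change was 0.21 (SE 0.189, adjusted p = 0.394), with a 95% interval from -0.22 to 0.63. Per kb of exon, Abcb1b exceeded Abcb1a 2.48- and 4.60-fold in the untreated WT libraries and 7.46- and 10.1-fold in the treated ones, and in Cfp1-/- cells 3.67- and 4.48-fold without and 9.24- and 10.7-fold with the drug. Of the 75-base stretches of their protein-coding transcripts, 11.4% in Abcb1a and 12.5% in Abcb1b also occur in those of the other gene or of Abcb4. Reads from these stretches may thus be missing from both counts. The other 6 genes share none with protein-coding transcripts of other genes. Pseudogenes and the rest of the genome were not searched.

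To set the neighbouring pair side by side, the 250 bases before each start were read from the NCBIm37 genome. Both are shown 5′ to 3′ on the plus strand, and capitals mark a full match to the p53 half-site, searched on both strands. Abcb1b holds 1 match, at -191 to -182 from its start, and Abcb1a holds none. Such a match lay in 6.36% of the windows of all 22375 genes. A match is a description of these letters only.

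Abcb1a, chr5:8659827-8660076: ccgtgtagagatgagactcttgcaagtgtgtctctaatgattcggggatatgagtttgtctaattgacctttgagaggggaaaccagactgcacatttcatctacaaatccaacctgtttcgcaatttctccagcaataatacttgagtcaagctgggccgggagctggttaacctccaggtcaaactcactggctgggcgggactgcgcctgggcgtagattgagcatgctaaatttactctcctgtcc

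Abcb1b, chr5:8797897-8798146: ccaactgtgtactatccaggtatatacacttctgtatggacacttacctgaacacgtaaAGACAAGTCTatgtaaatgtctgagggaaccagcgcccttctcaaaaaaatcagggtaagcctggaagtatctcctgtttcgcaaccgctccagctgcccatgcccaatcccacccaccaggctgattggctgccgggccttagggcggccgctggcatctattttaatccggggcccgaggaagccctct

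Other tested genes within 100 kb of the pair were Abcb4, Crot and Rundc3b. Abcb4, a phospholipid exporter of bile and the next gene past Abcb1b, had log2 fold changes of 0.71 (SE 0.656, adjusted p = 0.4) in WT and 0.91 (SE 0.592, adjusted p = 0.23) in Cfp1-/- cells. Crot, a peroxisomal carnitine transferase, rose by 1.08 (SE 0.224, adjusted p = 0.00331) and 1.20 (SE 0.225, adjusted p = 0.00187) on the log2 scale. Rundc3b, before Abcb1a, had a log2 fold change of -0.19 (SE 0.211, adjusted p = 0.48) in WT and fell by 0.72 (SE 0.206, adjusted p = 0.0161) in Cfp1-/- cells.

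Abcg2 (ENSMUSG00000029802, NCBIm37 chr6:58534517-58642863, plus strand) had 2850 and 3102 normalized counts in untreated WT and 999 and 1237 in treated WT, 2466 and 2428 in untreated Cfp1-/- and 985 and 902 in treated Cfp1-/- cells. Treated libraries were below untreated ones in both lines without overlap. The fall was 2.58-fold in WT (log2 fold change -1.37, SE 0.144, adjusted p = 6.38e-05) and 2.52-fold in Cfp1-/- cells (-1.33, SE 0.144, adjusted p = 7.93e-05). The difference between the responses was 0.03 on the log2 scale, with a 95% interval from -0.42 to 0.48.

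Abcc1 (ENSMUSG00000023088, NCBIm37 chr16:14361651-14475830, plus strand) had 1903 and 2266 normalized counts in untreated WT and 1043 and 1101 in treated WT, 2979 and 3116 in untreated Cfp1-/- and 1909 and 2091 in treated Cfp1-/- cells. It fell 1.88-fold in WT (log2 fold change -0.91, SE 0.134, adjusted p = 0.000453) and 1.48-fold in Cfp1-/- cells (-0.57, SE 0.132, adjusted p = 0.00611). The treated Cfp1-/- libraries lay at the level of untreated WT. Scaled to total counts instead, the fall in Cfp1-/- cells had an adjusted p of 0.0559. Myh11, a smooth muscle myosin gene 70.2 kb before Abcc1, rose by 2.77 (SE 0.383, adjusted p = 0.00032) in WT and 3.87 (SE 0.350, adjusted p = 3.11e-05) in Cfp1-/- cells on the log2 scale, and 0610037P05Rik had log2 fold changes of -0.81 in both (adjusted p = 0.00414 and 0.00421). No gene lay within 100 kb of Abcg2.

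**Figure D2:**
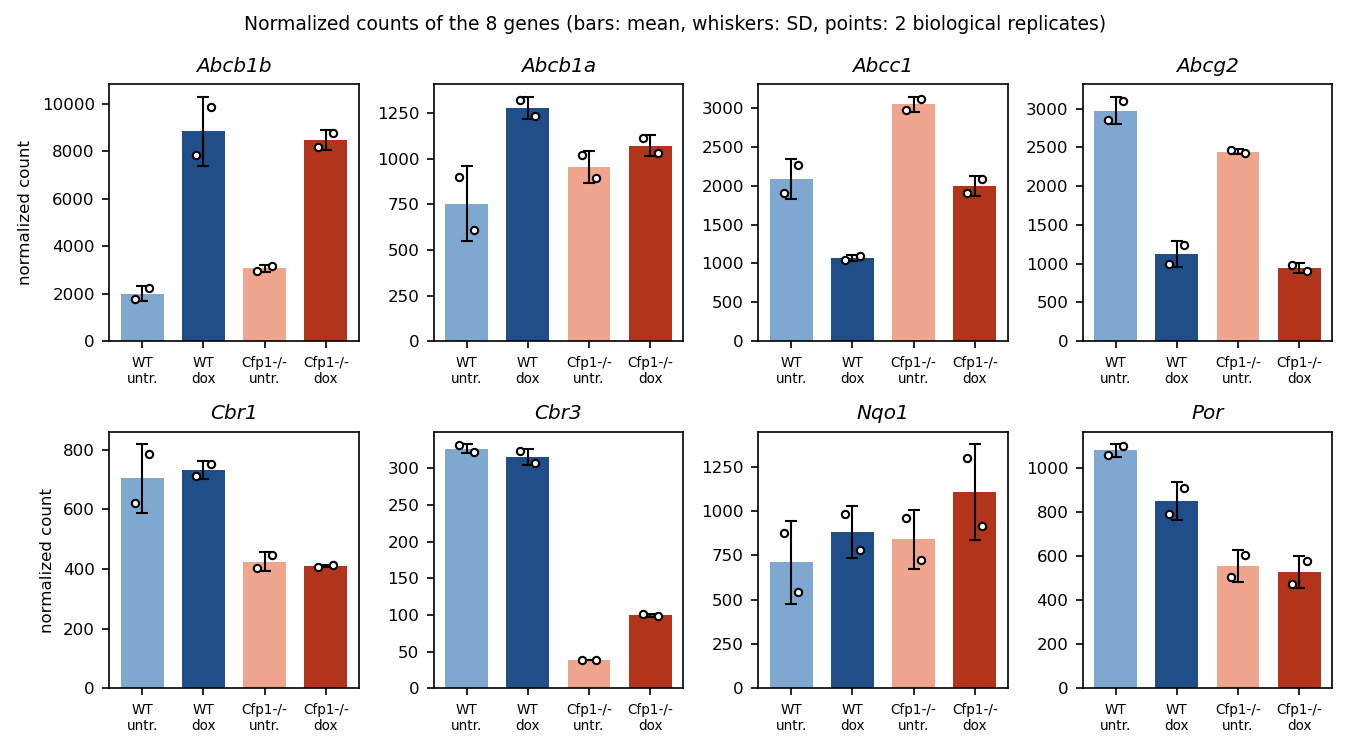
Normalized counts (y axis, from 0, a scale per gene) of the 8 genes in the 4 groups (x axis; untr., untreated; dox, doxorubicin). Bars are means, whiskers the SD and points the 2 biological replicates. Abcb1b rose and Abcg2 and Abcc1 fell in both lines, and Cbr3 was low in both Cfp1-/- groups.

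By the fixed rule, the 3 tested genes most like Abcb1b over the 8 libraries, by Pearson correlation of log2(normalized count + 1), were Pex6, Rbm43 and Pkp3 with r of 0.997, 0.996 and 0.995. Those most like Abcg2 were Tmem161b, Rai14 and Hist1h2ak with r of 0.998, 0.998 and 0.997. The 8 points share treatment and line, so such values describe these libraries only.

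Among the reductases, Cbr1 (ENSMUSG00000051483, NCBIm37 chr16:93608082-93610750, plus strand) had 623 and 786 normalized counts without and 711 and 753 with doxorubicin in WT, and 403 and 447 without and 407 and 413 with it in Cfp1-/- cells. Treated and untreated libraries overlapped in both lines (adjusted p = 0.64 and 0.968). The 95% intervals of its log2 fold change ran from -0.27 to 0.48 in WT and from -0.39 to 0.37 in Cfp1-/- cells.

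Cbr3 (ENSMUSG00000022947, NCBIm37 chr16:93683460-93691235, plus strand), the paralogue of Cbr1 72.7 kb past its end, had its lowest levels in untreated Cfp1-/- cells. It had 331 and 322 normalized counts in untreated and 324 and 307 in treated WT cells, and 38.0 and 38.0 in untreated and 101 and 98.3 in treated Cfp1-/- cells. The raw counts behind the Cfp1-/- values were 41 and 45 without and 99 and 102 with doxorubicin. Cbr3 rose 2.70-fold in Cfp1-/- cells (log2 fold change 1.43, SE 0.221, adjusted p = 0.000638), whereas in WT its log2 fold change was -0.005 (SE 0.195, adjusted p = 0.987), with a 95% interval from -0.44 to 0.43.

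Nqo1 (ENSMUSG00000003849, NCBIm37 chr8:109912125-109927106, minus strand) had 877 and 545 normalized counts in untreated and 984 and 777 in treated WT, 958 and 721 in untreated and 1298 and 914 in treated Cfp1-/- cells. Replicate 1 was the higher of the pair in all 4 groups, and treated and untreated libraries overlapped in both lines. Its log2 fold change with doxorubicin was 0.35 in WT (SE 0.267, adjusted p = 0.304) and 0.44 in Cfp1-/- cells (SE 0.265, adjusted p = 0.197). With the replicate number as a block the test was passed in both lines, with log2 fold changes of 0.38 (adjusted p = 0.0349) and 0.43 (adjusted p = 0.0178). Of 4 tested genes within 100 kb of Nqo1, Nfat5 and Rps26-ps1 rose in WT, by 0.77 (adjusted p = 0.0231) and 0.58 (adjusted p = 0.0112) on the log2 scale, and had -0.02 and 0.04 in Cfp1-/- cells. Nob1 fell in both lines, with log2 fold changes of -0.45 (adjusted p = 0.0205) and -0.43 (adjusted p = 0.0258), and Wwp2 had -0.27 and -0.22 without passing.

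Por (ENSMUSG00000005514, NCBIm37 chr5:136145903-136211196, plus strand) had 1062 and 1103 normalized counts in untreated and 791 and 912 in treated WT, 504 and 607 in untreated and 476 and 581 in treated Cfp1-/- cells. Its log2 fold change with doxorubicin was -0.30 in WT (SE 0.166, adjusted p = 0.164) and -0.03 in Cfp1-/- cells (SE 0.167, adjusted p = 0.902). The runs of the divergent libraries disagreed for Por, with a CPM of 45.5 and 32.0 in the first and second run of replicate 1 in treated WT and of 29.0 and 20.5 in its treated Cfp1-/- counterpart. In the latter library the ratio of first to second run was 1.41 for Por, beside 0.663 for Cbr1 and 0.817 for Nqo1. Tmem120a, which lies 0.159 kb past the end of Por on the other strand, rose by 1.67 (SE 0.177, adjusted p = 6.71e-05) in WT and 2.19 (SE 0.183, adjusted p = 2.11e-05) in Cfp1-/- cells on the log2 scale. Styxl1, 11.9 kb past Por, rose by 3.35 (SE 0.744, adjusted p = 0.00471) in Cfp1-/- cells and had a log2 fold change of 1.11 (SE 0.875, adjusted p = 0.324) in WT. The raw counts of Styxl1 were only 2 and 1 without and 10 and 19 with doxorubicin in Cfp1-/- cells, and 2 to 5 in WT. The other tested genes within 100 kb, Rhbdd2, Mdh2 and Srrm3, passed in neither line.

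In Cfp1-/- cells Abcb1b and Cbr3 were higher and Abcg2 and Abcc1 lower with doxorubicin, 2 of 8 genes or 25.0% in each direction. Of all tested genes 27.8% were higher and 21.0% lower, again near the share of the 8 genes. Scaling to total counts moved the higher genes from 57.0% to 71.9% of all calls. Abcb1b and Abcg2 passed the limits of the study, as 5.38% of tested genes did upwards and 2.23% downwards. The mean of Cbr3 was too low for them.

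None of the 8 genes passed edgeR's test of the difference between the responses of the lines, which 0.235% of tested genes passed. At an unadjusted p under 0.05 there were 3, Abcb1a, Abcb1b and Cbr3, or 37.5%, beside 10.6% of all tested genes, and the Wald test of DESeq2 called 1 of the 8 and 221 of 15758. For Cbr3 the difference was 1.44 on the log2 scale (SE 0.295, adjusted p = 0.117), with a 95% interval from 0.78 to 2.10. It passed with the replicate number as a block (adjusted p = 0.0367) and in DESeq2 (adjusted p = 0.0148). For Abcb1b, whose treated libraries overlapped between the lines and whose untreated ones did not, the difference was -0.69 (SE 0.220, adjusted p = 0.305). For Abcb1a the difference was -0.60 (SE 0.268, adjusted p = 0.471), so the call in WT alone does not show that the lines differ.

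**Figure D3:**
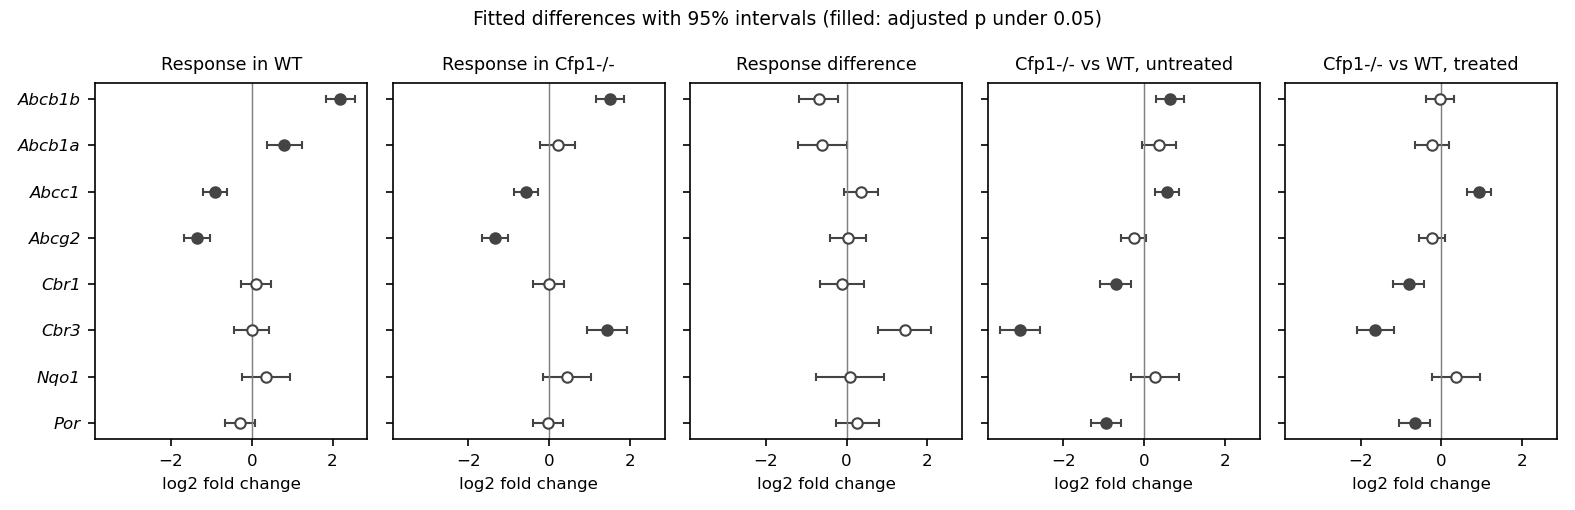
Fitted log2 fold changes (x axis) of the 8 genes (y axis) in 5 comparisons, with 95% intervals as whiskers. Filled points passed an adjusted p under 0.05, and none did in the response difference. Cbr3 lay farthest from 0 in both comparisons of Cfp1-/- with WT.

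Between the untreated lines, 3 of the 4 reductases were lower and a pair of transporters higher in Cfp1-/- cells. The comparison uses the same untreated WT libraries as the WT response and so is not independent of it. Cbr3 was 8.40-fold lower (log2 fold change -3.07, SE 0.221, adjusted p = 4e-05), Por 1.91-fold lower (-0.93, SE 0.167, adjusted p = 0.00291) and Cbr1 1.62-fold lower (-0.70, SE 0.169, adjusted p = 0.0114). Abcb1b was 1.57-fold higher (0.65, SE 0.156, adjusted p = 0.011) and Abcc1 1.49-fold higher (0.58, SE 0.132, adjusted p = 0.00896). That is 37.5% of the 8 genes lower against 16.1% of tested genes, and 25.0% higher against 17.9%. Scaled to total counts, these 5 calls held, and the higher genes moved from 52.7% to 70.5% of all calls between untreated and from 58.3% to 69.2% between treated lines. Under the limits of the study none passed, against 1.51% of tested genes lower and 1.82% higher, because the mean of Cbr3 over these libraries was below 200 and the other changes were under 2.5-fold.

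Of these calls, those of Cbr3 and Por held without any 1 library. Cbr1 had an adjusted p of 0.0977 without replicate 2 of untreated WT and 0.0858 without replicate 1 of untreated Cfp1-/- cells. Abcb1b had 0.0821 without replicate 1 of untreated WT and 0.0533 without replicate 2 of untreated Cfp1-/- cells. Abcc1 had 0.0746 without replicate 1 of untreated WT.

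With doxorubicin, Cbr3 was 3.11-fold lower in Cfp1-/- than in WT cells (log2 fold change -1.64, SE 0.205, adjusted p = 0.000915), Cbr1 1.76-fold lower (-0.81, SE 0.170, adjusted p = 0.00858) and Por 1.58-fold lower (-0.66, SE 0.168, adjusted p = 0.0187). Abcc1 was 1.90-fold higher (0.92, SE 0.134, adjusted p = 0.00175). Abcb1b differed by -0.04, with a 95% interval from -0.39 to 0.31. The shares of the 8 genes were 37.5% lower and 12.5% higher, beside 10.8% and 15.1% of tested genes, and under the limits of the study Cbr3 alone passed, beside 1.02% lower and 1.59% higher. Por lost its call without replicate 2 of treated WT (adjusted p = 0.0942) or replicate 1 of treated Cfp1-/- cells (0.117), and Cbr1 without replicate 1 or 2 of treated Cfp1-/- cells (0.0504 and 0.0552). Abcg2, Nqo1 and Abcb1a passed in neither comparison of the lines.

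Cbr1 and Cbr3, which lie close together and were both lower in untreated Cfp1-/- cells, are shown by the 250 bases before their starts in NCBIm37, 5′ to 3′ on the plus strand, with each CpG in capitals. Cbr3 holds 14 CpGs and Cbr1 holds 6, where the median of all 22375 windows is 8. The genes beside them on chromosome 16 did not pass the test between untreated lines: Setd4, a methyltransferase 3.77 kb before Cbr1, had a log2 fold change of -0.12 (SE 0.162, adjusted p = 0.589) and Dopey2, 20.9 kb past Cbr3, one of -0.17 (SE 0.323, adjusted p = 0.709). With doxorubicin Dopey2 rose in both lines, by 1.78 (adjusted p = 0.00159) and 1.84 (adjusted p = 0.00136) on the log2 scale.

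Cbr1, chr16:93607832-93608081: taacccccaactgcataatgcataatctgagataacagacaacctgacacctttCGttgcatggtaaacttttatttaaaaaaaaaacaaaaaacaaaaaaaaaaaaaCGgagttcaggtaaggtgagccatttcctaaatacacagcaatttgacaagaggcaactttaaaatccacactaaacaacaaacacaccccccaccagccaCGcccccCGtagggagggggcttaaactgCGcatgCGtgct

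Cbr3, chr16:93683210-93683459: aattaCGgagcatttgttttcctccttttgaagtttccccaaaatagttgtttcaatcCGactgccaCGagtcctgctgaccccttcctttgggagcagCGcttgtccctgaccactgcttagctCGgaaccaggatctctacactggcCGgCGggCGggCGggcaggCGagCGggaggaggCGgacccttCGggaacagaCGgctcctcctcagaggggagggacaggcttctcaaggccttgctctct

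Of the other members, Abcc1 had 24 CpGs in this window, Abcb1b 9, Abcb1a 7, Nqo1 5, Por 5 and Abcg2 3. The deposited starts of Abcc1, Abcg2 and Por are the first of several. Over 5 annotated transcript starts each, the same window held 3 to 26 CpGs in Abcc1, 1 to 26 in Abcg2 and 3 to 22 in Por. Abcg2-007 with 26 and Por-001 with 19 were picked for the plot of CpG positions after their CpGs had been counted. The letters TGACNNNGC, the core of the antioxidant response element bound by Nrf2, were in none of the 8 windows at gene starts and in 10.0% of all windows, on either strand. At that share, absence from 8 windows is not unusual. Sequence beyond the windows at annotated starts was not searched, so this does not show that any of the 8 genes lacks such an element. Which starts were used in these cells was not measured here.

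**Figure D4:**
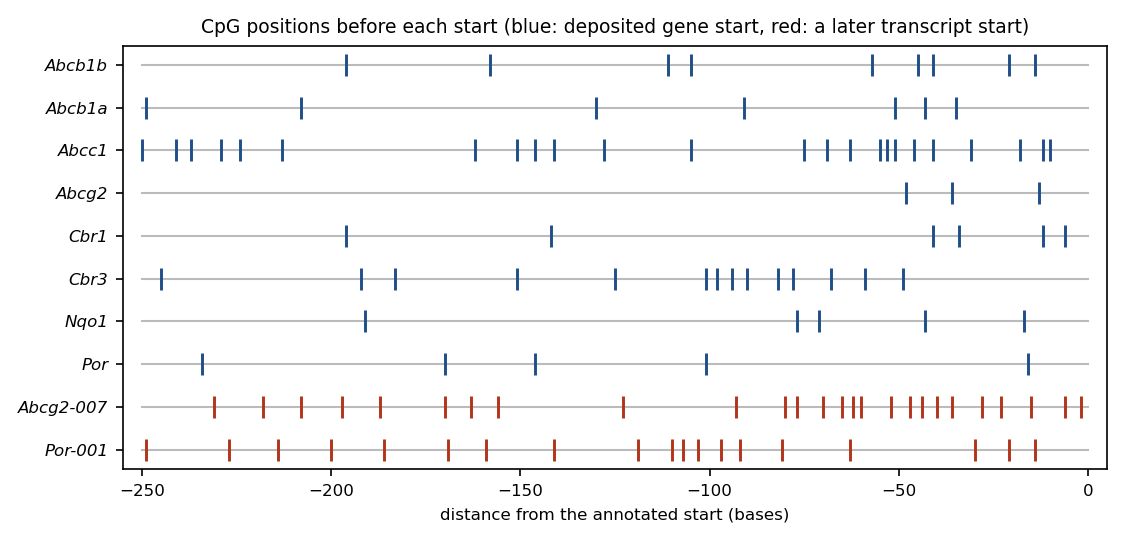
CpG positions in the 250 bases before each start (x axis, distance from the annotated start in bases). Blue ticks belong to the deposited gene starts and red ticks to a later, CpG-rich transcript start of Abcg2 and of Por; Abcc1 holds 24 CpGs, Cbr3 14 and Cbr1 6.

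The 8 genes belong to wider systems, for which 7 gene lists were made with 173 genes, 114 of them tested. Beside the list counts, 26.5% of all tested genes rose and 21.8% fell in WT, and 27.8% and 21.0% in Cfp1-/- cells. With scaling to total counts, 5731 of 15758 tested genes rose and 1836 fell in WT, in place of 4174 and 3433. In Cfp1-/- cells 5271 rose and 2057 fell with it, in place of 4386 and 3306. List counts under that scaling are to be read beside this shift of all tested genes. A gene could pass the count filter through the libraries of 1 group alone, so list counts and medians depend in part on that filter. Among 14 other ABC transporters linked to drug export, 9 rose (64.3%) and 1 fell in WT, and 11 and 0 with scaling to total counts, with a median log2 fold change of 0.83 beside 0.06 for all tested genes. In Cfp1-/- cells 6 rose and 1 fell, and 9 and 0 with that scaling, with a median of 0.79. The largest rise was in Abcc6, an exporter of liver and kidney, from 5.68 ± 0.819 to 83.6 ± 22.6 normalized counts in WT (SD, n = 2; log2 fold change 3.90, adjusted p = 5.32e-05). Abcc3 and Abcc2, relatives of Abcc1 that export conjugates, rose from low levels, by 2.01 (adjusted p = 0.00284) and 1.61 (adjusted p = 0.0118) on the log2 scale. Abcc4, the most abundant of those named at 3775 ± 1065 normalized counts untreated, fell by 0.75 on the log2 scale (adjusted p = 0.0352). In untreated Cfp1-/- cells 4 of the 14 were higher than in WT, or 28.6%, beside 17.9% of all tested genes.

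Other carbonyl and quinone reductases split: of 15 tested, 2 rose and 2 fell in WT, and 3 rose and 2 fell in Cfp1-/- cells. With scaling to total counts 3 rose and 1 fell in WT, and 4 and 1 in Cfp1-/- cells. Akr1b10 rose from 312 ± 37.0 to 782 ± 13.5 normalized counts in WT (log2 fold change 1.37, adjusted p = 0.000122), and Akr7a5, an aldehyde reductase, rose by 0.77 (adjusted p = 0.0187). Nqo2, the relative of Nqo1, fell from 497 ± 66.0 to 238 ± 2.95 (log2 fold change -1.02, adjusted p = 0.00249), and Akr1b8 had a log2 fold change of -0.79 (adjusted p = 0.0301). Over the list the median was -0.50 in WT and -0.08 in Cfp1-/- cells on the log2 scale, and -0.18 and 0.13 when scaled to total counts.

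Among 14 other enzymes that can pass single electrons to quinones, 5 rose and 3 fell in each line. These were 35.7% and 21.4%, beside 26.5% and 21.8% of all tested genes in WT and 27.8% and 21.0% in Cfp1-/- cells. With scaling to total counts 8 rose and 2 fell in WT, and 7 and 1 in Cfp1-/- cells. Nos2, the inducible nitric oxide synthase, rose by 3.41 (adjusted p = 0.000501), Fdxr, the mitochondrial ferredoxin reductase and a known p53 target, by 1.90 (adjusted p = 2.51e-05) and Aox1, aldehyde oxidase, by 1.82 (adjusted p = 0.00101) on the log2 scale in WT. Those that fell were Cyb5r1 with a log2 fold change of -0.82 (adjusted p = 0.00606), Ndufs1 of respiratory complex I with -0.72 (adjusted p = 0.00181) and Mtrr, a reductase related to Por, with -0.61 (adjusted p = 0.0126).

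Abcc1 exports glutathione with its substrates. Of 12 genes that supply, recycle or use glutathione (the last such as the transferases Gsto1 and Gsta4), 4 rose and 3 fell in WT. In Cfp1-/- cells 2 rose and 2 fell. These were 33.3% and 25.0% in WT and 16.7% in each direction in Cfp1-/- cells, beside 26.5% and 21.8%, and 27.8% and 21.0%, of all tested genes. With scaling to total counts 5 rose and 1 fell in WT, and 2 and 0 in Cfp1-/- cells. Gsto1, Gss and Gclc rose in WT by 1.17 (adjusted p = 0.00111), 1.13 (adjusted p = 0.00142) and 0.80 (adjusted p = 0.00152) on the log2 scale. Gclc encodes the catalytic subunit of glutamate-cysteine ligase, the first enzyme of glutathione synthesis, and Gss completes the synthesis. Gsto1, on chromosome 19, had 1289 counts in the first and 0 in the second run of replicate 1 of treated Cfp1-/- cells. Its log2 fold change there was 0.24 (adjusted p = 0.336), and 0.54 (adjusted p = 0.0284) without the second runs. Gsr, which regenerates glutathione, fell with a log2 fold change of -0.76 (adjusted p = 0.000908), Gclm, the other subunit of the ligase, with -0.45 (adjusted p = 0.0225) and Gsta4 with -0.41 (adjusted p = 0.0407). In untreated Cfp1-/- cells 4 of the 12 were lower (33.3%) and 2 higher (16.7%) than in WT, beside 16.1% and 17.9% of all tested genes.

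Of the electron acceptors of Por, microsomal cytochrome P450 genes with Hmox1, Hmox2, Sqle and cytochrome b5 genes, 40 of 93 were tested. In WT 17 rose (42.5%) and 5 fell (12.5%), beside 26.5% and 21.8% of all tested genes, with a median log2 fold change of 0.60. In Cfp1-/- cells 19 rose (47.5%) and 6 fell (15.0%), beside 27.8% and 21.0% of all tested genes, with a median of 0.79. Cyp19a1, aromatase, had no counts in the untreated libraries of either line and 47.7 ± 4.76 normalized counts in treated WT, at least 16.8-fold higher than a floor of 3 counts per library. Cyp2f2 was likewise at 0 and rose to 23.3 ± 1.43, at least 8.20-fold higher. Cyp17a1 and Cyp2j12 also had no counts in untreated WT. Other genes called as rising had very few there, such as Cyp2c44 and Cyp4f14 with raw counts of 1 and 0 each. Such genes could enter the test through treated libraries alone. The number of rises, their shares and the medians thus depend in part on the count filter. Among genes passing the test in WT, the largest fitted fall was that of Cyp7b1 with a log2 fold change of -2.90 (adjusted p = 0.00112). Cyp26a1, which degrades retinoic acid, followed with -2.74 (adjusted p = 0.00502) and Sqle, squalene epoxidase of sterol synthesis, with -1.67 (adjusted p = 5.01e-05).

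Of the 114 list genes 1, Cyp4f39, had responses that passed the test of the difference between the lines, which 0.235% of all tested genes passed. It had 15.3 and 13.6 normalized counts in untreated WT, 122 and 98.9 in untreated Cfp1-/-, 1141 and 1482 in treated WT and 1050 and 1602 in treated Cfp1-/- cells. The treated groups overlapped and the untreated ones did not, and the rise was smaller in Cfp1-/- cells, with a difference of -2.91 on the log2 scale (SE 0.393, adjusted p = 0.0317). Without any 1 of the 8 libraries its adjusted p was above 0.05. At an unadjusted p under 0.05 there were 13 such list genes, or 11.4%, beside 10.6% of all tested genes, and DESeq2 called 2.

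Of the regulators of the member genes 3 of 15 tested rose and 2 fell in WT, and 4 rose and 3 fell in Cfp1-/- cells. These numbers depended on scaling, as did those of all tested genes. With total counts 8 rose and 1 fell in WT, and 7 and 1 in Cfp1-/- cells. Nr1i2, the xenobiotic receptor PXR that is known to act on Abcb1 genes, rose from 1.99 ± 1.61 to 8.41 ± 2.93 normalized counts in WT (log2 fold change 2.10, adjusted p = 0.0454). The raw counts behind these values were only 1 and 3 without and 8 and 6 with doxorubicin. This call was lost in DESeq2, with no filter and without the 2 second runs. Mafk, a small Maf partner of Nrf2, rose by 1.70 (adjusted p = 0.000201) and Rxra by 1.22 (adjusted p = 0.000416), both on the log2 scale, whereas Hif1a and Arnt fell, with log2 fold changes of -0.83 (adjusted p = 0.00116) and -0.67 (adjusted p = 0.0266).

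Of 7 genes linked to doxorubicin uptake 4 had enough counts to be tested. Slc29a1, an equilibrative nucleoside transporter, was the most abundant and fell from 1895 ± 1016 to 553 ± 249 normalized counts in WT (log2 fold change -1.74, adjusted p = 0.00803). Slc28a3 and Slc22a17 rose by 2.85 (adjusted p = 0.000864) and 2.30 (adjusted p = 0.000232) on the log2 scale. The rise of Slc28a3 started from raw counts of only 6 and 6 in untreated WT, with 29 and 40 in treated WT. Both lines had 2 of the 4 genes higher (50.0%) and 1 lower (25.0%), and 3 and 1 with scaling to total counts.

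**Figure D5:**
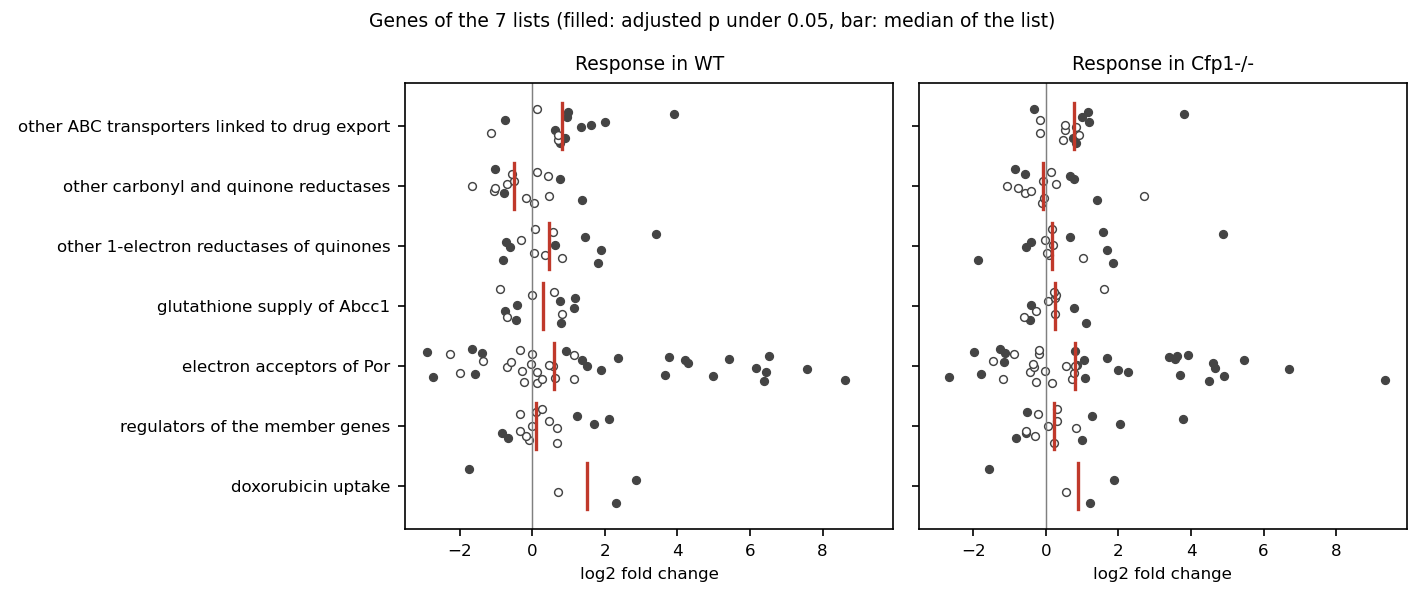
Log2 fold change with doxorubicin (x axis) of each tested gene of the 7 lists (y axis) in WT and Cfp1-/- cells. The list labelled glutathione supply also holds transferases that use glutathione. Filled points passed an adjusted p under 0.05, open points did not, and red bars are list medians, such as 0.83 in WT for the other ABC transporters.

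Leaving out the divergent second runs of the 2 libraries changed 17 of the 70 list counts, by at most 1 gene each. Besides Gsto1, the list genes at 0 in the second run of treated Cfp1-/- replicate 1 were Abcc2, Cyp17a1, Cyp26a1, Cyp2c29, Cyp2c44, Cyp2c55 and Cyp2c69, all on chromosome 19, and none of these 7 gained or lost a call in the Cfp1-/- response without the second runs. Stretches shared with other genes were not searched for the list genes. Counts of those members of the Akr1b, Akr1c, Gst and Cyp families that have near-identical copies are less certain.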

How the data were processed

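RNA-seq of 16 samples was analysed. The authors removed ribosomal RNA before strand-specific library preparation, aligned reads to NCBIm37 with STAR (2.2.1 in the submitters' processing notes) and counted unambiguous reads on the sense strand over the exons of Ensembl genes with HTSeq. They deposited raw counts per technical replicate and, for each biological replicate, a normalized count, a signal that matches the counts of both runs over a size factor from DESeq within 1e-05. Reads on overlapping or near-identical genes are not counted.

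Counts were summed over technical replicates and fitted with edgeR 4.0.16 in R 4.3.3 (filterByExpr, TMM, a coefficient per group, glmQLFit and glmQLFTest, Benjamini-Hochberg over 15758 genes); a call is an adjusted p under 0.05. Standard errors and 95% intervals were derived from the test statistic. The method was tested on simulated data. Levels are given as the mean ± SD of the deposited normalized counts and, for comparisons between genes, divided by the length covered by exons in the GENCODE annotation of NCBIm37, which held 22324 of the 22375 genes. Replicate numbers are shared by the groups. Deviations of same-numbered libraries correlated at 0.142 to 0.454 in all 6 pairs of groups, so a fit with the replicate number as a block was treated as paired, although the labels do not say what a number shares.

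Named were the 8 members, up to 3 list genes per direction with the largest fitted log2 fold change among those passing in the WT response, any list gene passing the response difference, the 3 genes most correlated with each of the 2 called members with the largest log2 fold change in the WT response, and tested neighbours within 100 kb. Members, lists and rules were chosen with earlier results of these data known. Alternatives were other scalings, no filter, DESeq2 1.42.0, the replicate block, only the groups compared, no divergent second runs, the limits of the study and leaving out each replicate. Intervals cover the spread of these libraries only.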

Additional observations from a re-analysis of the deposited data

Results flagged for a closer look

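Cyp4f39, a cytochrome P450 gene and potential electron acceptor of Por, responded differently in the lines by a test of the difference itself: its rise was smaller in Cfp1-/- cells, with a difference of -2.91 on the log2 scale (SE 0.393, adjusted p = 0.0317, edgeR). All 4 libraries of treated cells had at least 1050 normalized counts, while the untreated ones had 13.6 to 15.3 in WT and 98.9 to 122 in Cfp1-/- cells. Over 14 alternatives the adjusted p ran from 1.48e-07 to 0.146 and stayed under 0.05 in 6, which were those that kept all libraries, and it was above 0.05 without any 1 of the 8 libraries.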

How the results depend on the processing

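Of 464 recomputed log2 fold changes of the 8 members, 23 changed sign, 11 lost and 6 gained a call. No called value changed sign. Scaling to total counts raised the median over all tested genes, on the log2 scale, from 0.06 to 0.37 in the WT response, from 0.01 to 0.23 in the Cfp1-/- response, and from 0.01 to 0.20 and 0.02 to 0.11 in the untreated and treated comparisons of the lines. Under it, uncalled values changed sign to 0.31 for Cbr3 and 0.015 for Por in the WT response, to 0.20 for Cbr1 and 0.19 for Por in the Cfp1-/- response, to -0.067 for Abcg2 and -0.012 for Nqo1 in the response difference, and to 0.053 for Abcb1b between treated lines. Without the 2 second runs Por changed to 0.047 in the Cfp1-/- response. Leaving out 1 library, the values ranged from -0.056 to 0.26 for Cbr1 and -0.047 to 0.025 for Cbr3 in the WT response, from -0.090 to 0.051 for Cbr1 and -0.175 to 0.094 for Por in the Cfp1-/- response, from -0.12 to 0.19 for Abcg2 and -0.34 to 0.36 for Nqo1 in the response difference, from -0.040 to 0.66 for Nqo1 between untreated lines and from -0.21 to 0.13 for Abcb1b between treated lines. The cause was not tested.

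The limits of the study reduced the members called from 4 to 2 in each response, from 5 to 0 between untreated lines and from 4 to 1 between treated lines, since they add conditions to the same test. Between treated lines the number was 2 to 4 without 1 library, the lowest without replicate 1 of treated Cfp1-/- cells. The replicate block raised it to 5 in each response, by Nqo1, and from 0 to 1 in the response difference, by Cbr3, as did the Wald test of DESeq2. The block changed no other call. Abcb1a gained a call between untreated lines with total counts (adjusted p = 0.0427) and without replicate 1 of untreated WT (0.0301). Without correction for length 6 of the 8 ranks by level in untreated WT changed, and with 1 replicate alone all but those of Cbr3 and Por changed in at least 1 of the 2 cases. With the length of the longest transcript, chosen after seeing the data, those of Abcc1, Cbr3 and Por changed. Of 237 recomputed values of 34 named list genes, also chosen after seeing the data, 13 lost the call, in Abcc4, Akr1b8, Arnt, Gclm, Gsta4, Mtrr and Nr1i2. The lowest counts among the members, and so the least depth, were the 41 and 45 of Cbr3 in untreated Cfp1-/- cells.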
